A study of Mus musculus with 16 samples.

Results

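The genotype by 4b interaction asks whether 4b, an inhibitor of histone deacetylases, moved gene expression in transgenic muscle differently from wild-type muscle. It was measured in gastrocnemius, a mixed but mainly fast calf muscle, of B6C3F1/J mice on Illumina bead arrays, 1 array per animal. All 16 arrays of the series took part. Of the 9 wild-type animals 4 had received vehicle and 5 had received 4b. Of the 7 animals with the N17182Q transgene (Tg/+) 4 had received vehicle and 3 had received 4b. Groups are listed in that order below. The 4 groups were read from the sample titles. The sources used here state no dose, duration or age. For each gene the 4b change in transgenic mice (4b minus vehicle) was taken minus the same change in wild-type mice, so that a positive interaction means that 4b took the gene higher, or less low, in transgenic than in wild-type muscle. A probe entered if 3 or more arrays gave it a detection p below 0.05, which 13706 of 25697 did, and after 1 probe was kept per gene 10295 genes were tested, 9521 of them with a symbol.

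N17182Q mice carry an N-terminal fragment of mutant human huntingtin with a long glutamine stretch. The transgene is driven by a prion protein promoter, which is active in brain and in many other tissues, so muscle is one of several tissues that may express it. The mice develop a Huntington's disease-like illness with wasting. Histone deacetylases remove acetyl groups from histones and other proteins and sit in corepressor complexes that keep genes silent. In muscle the class II enzymes are known to hold back MEF2 transcription factors, and class I enzymes have been linked to FoxO-driven atrophy genes. The 4 groups share strain and tissue, and the reference of the interaction is the 4b change in wild-type muscle.

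Muscle identity of the samples was checked on Acta1, Myh4 and Ckm, which were detected on all 16 arrays, while the liver gene Alb, the glial gene Gfap and the pancreatic gene Ins2 were detected on 0. An array detected from 42.7% to 50.3% of its probes, and arrays correlated with one another at 0.901 to 0.985 over the tested genes. The interaction in the detected share was -1.98 percentage points (two-sided exact permutation test over all divisions of the treatment labels within genotype, p = 0.367; the smallest p this design allows is 0.00023). Both sexes occurred in every group: Eif2s3y, a Y-linked gene, exceeded Xist in 2 of 4, 2 of 5, 3 of 4 and 1 of 3 animals, in the group order above. Some arrays stood apart in other cell types. Summed leukocyte markers were above the wild-type vehicle mean on 6 arrays spread over all 4 groups, and red cell markers stood high on replicate 3 of the transgenic mice given 4b, with a score of 2.98.

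Values below are log2 of the background-corrected, quantile-normalised probe intensity, differences are log2 differences with their standard error (SE), and a call is an adjusted p below 0.05. In bulk muscle, fewer cells of a type and less RNA per cell cannot be told apart. The labels name no batch, litter or day.

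No gene passed the interaction test. Of 10295 genes, 0 were called (0%) by limma with Benjamini-Hochberg adjustment, and the ordinary test without moderated variances also called 0. At an unadjusted p under 0.05 there were 1039 genes (10.1%), 625 above 0 (6.07%) and 414 below 0 (4.02%). Single arrays moved that count: it was 1763 without replicate 1 and 650 without replicate 2 of the transgenic mice given vehicle, and 1640 without replicate 3 and 655 without replicate 2 of those given 4b. The smallest adjusted p was 0.0711, for Nfkbib. The split between directions moved with the scaling: 71.1% of the genes with an unadjusted p under 0.05 were above 0 after median scaling (817 of 1149) and 49.7% after cyclic loess (537 of 1081), against 60.2% here. The median SE of the interaction was 0.312, larger than for any of the 4 contrasts between 2 groups. The 95% interval lay within 1 log2 unit of 0 on both sides for 5201 genes (50.5%), so for the other genes a change of at least 2-fold in the ratio of ratios lay inside the interval or beyond it.

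The lack of calls depended on how single arrays counted. Weights estimated for each array gave 89 calls, 47 above and 42 below 0, with weights from 0.504 for replicate 1 of the transgenic mice given vehicle to 3.92 for replicate 2 of the transgenic mice given 4b. Without replicate 3 of the transgenic mice given 4b there were 17 calls, 11 above and 6 below 0, among them Nfkbib, Mef2c, Lurap1l, Cxcl1 and Asph. The fit pools the spread over all groups, and with 2 arrays left that group added little to it. Without replicate 1 of the transgenic mice given vehicle 1 gene was called, Maff, a small MAF transcription factor, at 1.85 ± 0.22 (adjusted p = 0.00833, limma).

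In transgenic mice 4b gave 1 call (0.00971%), Nfkbib, and 1517 genes with an unadjusted p under 0.05 (14.7%). In wild-type mice it gave 0 calls (0%) and 275 such genes (2.67%). These counts rested on few arrays. The transgenic count was 817, 869 and 890 without replicate 1 or 2 of the 4b group or replicate 2 of the vehicle group, and the wild-type count was 128 and 764 without replicate 1 or 4 of its vehicle group. Without the 6 arrays of high leukocyte score, which leaves 1 transgenic animal given 4b, the order turned, with 361 genes in transgenic and 574 in wild-type mice. The arrays of vehicle and 4b did not overlap for 883 genes (8.58%) in transgenic mice and for 72 genes (0.699%) in wild-type mice. Full separation comes more easily with 4 against 3 arrays than with 4 against 5, so these shares are not set against each other. The 4b change was the larger one, in absolute size, in transgenic mice for 65.05% of genes. The median SE differed little, 0.235 in transgenic and 0.206 in wild-type mice. Across the 10295 genes the 2 changes, which share no array but were normalised together, had a Pearson correlation of -0.05 and a Spearman correlation of -0.09, and 53.77% of genes had opposite signs. Leaving out 1 array at a time moved the Pearson correlation between -0.14 and 0.09.

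**Figure D1:**
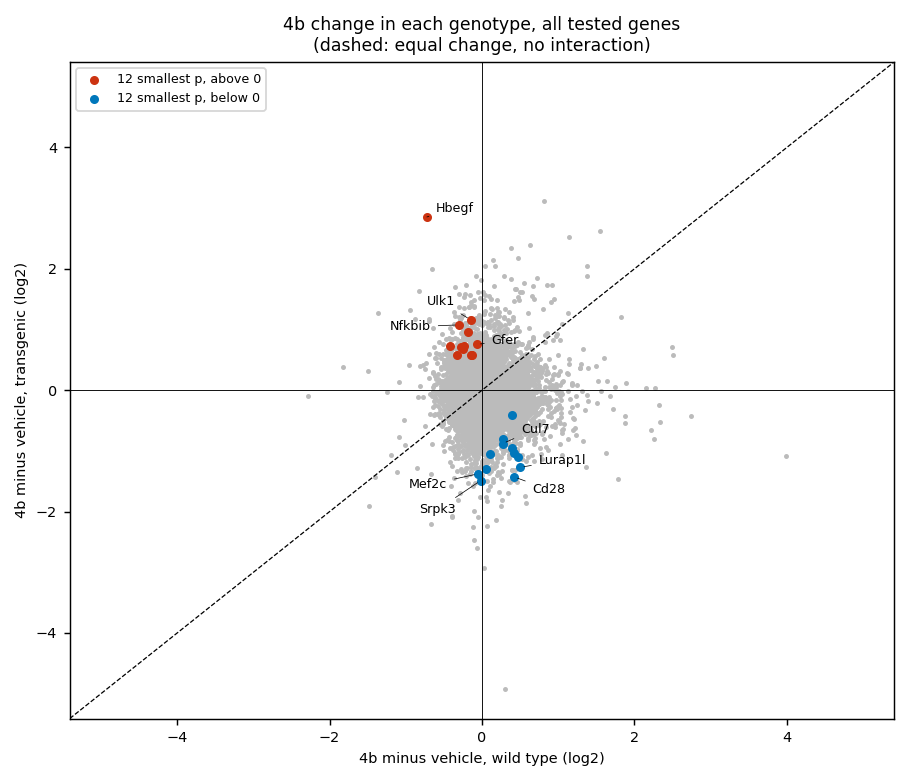
Each point is 1 of the 10295 tested genes; the horizontal axis is the 4b change in wild-type mice and the vertical axis the 4b change in transgenic mice, both in log2 units. The cloud is taller than it is wide, with 1517 genes at an unadjusted p under 0.05 in transgenic and 275 in wild-type mice, and the 24 coloured genes with the smallest interaction p lie off the dashed line of equal change.

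The same interaction can be read as the genotype difference with 4b minus that with vehicle. Transgenic and wild-type mice differed in 546 genes (5.3%) with vehicle and in 2911 genes (28.3%) with 4b. Of these, 425 were called in both, 77.84% of the first list and 14.6% of the second, and all 425 had the same direction in both. Among the 2486 genes called with 4b alone, 2303 (92.64%) had the same sign with vehicle, beside 73.01% of all tested genes. Their median absolute difference was 0.37 with vehicle and 0.89 with 4b, by which they were chosen. The median SE was 0.217 and 0.224. The counts of 546 and 2911 genes were not repeated under the alternatives, so their dependence on single arrays is not known. A gene called in one treatment and not in the other is not thereby shown to differ between them: the interaction is the test of that, and it called 0.

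Nfkbib encodes IkappaB-beta, an inhibitor that holds NF-kappaB dimers in the cytoplasm. Its level was 6.64, 6.42, 6.54 and 6.70 in wild-type mice given vehicle and 6.20, 6.41, 6.19, 6.49 and 6.05 in wild-type mice given 4b. In transgenic mice it was 6.95, 6.64, 7.01 and 6.75 with vehicle and 8.05, 8.04 and 7.65 with 4b. All 3 transgenic arrays with 4b lay above every other array, while vehicle and 4b overlapped in wild-type mice. The 4b change was 1.08 ± 0.16 in transgenic mice, a 2.11-fold difference (adjusted p = 0.0477, limma), and -0.31 ± 0.14 in wild-type mice. The interaction was 1.38 ± 0.21, with a 95% interval from 0.94 to 1.82 and an adjusted p of 0.0711 (limma). Over the alternatives it ran from 0.80 to 1.51 with the sign kept, and its adjusted p from 0.0196 to 1. The call of its 4b change in transgenic mice was close to the threshold: no gene was called there in 19 of the 37 alternatives, among them median scaling, all probes, and leaving out replicate 4 of the transgenic vehicle group, replicate 1 or 2 of the transgenic 4b group or any wild-type array but replicate 1 of the 4b group. With the alternative variance prior (trend and robust) the 1 gene called there lay below 0, so Nfkbib was not called either.

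Of the 19 tested genes of the NF-kappaB list (subunits, inhibitors, kinases and targets), 0 were called and 14 had an interaction above 0, with a median of 0.27 against -0.0039 for all genes. The median was -0.0051 with the tendon score as a covariate. Those above 0 with an unadjusted p under 0.05 numbered 3, Nfkbib, Tnip2 and Cxcl1. Tnip2, which encodes a partner of the NF-kappaB inhibitor A20, had an interaction of 1.03 ± 0.26, made of 0.72 in transgenic and -0.31 in wild-type mice, although another of its probes disagreed in sign. The chemokine Cxcl1 stood at 8.46, 8.94 and 6.19 in transgenic mice given 4b against 5.84 to 6.20 in those given vehicle. Its replicate 3 thus lay within the range of the vehicle arrays. The interaction was 1.45 ± 0.63 with that array, 2.28 without it and -0.18 without the 6 arrays of high leukocyte score. The subunits Rela, Nfkb2 and Relb were at 0.27, 0.12 and -0.0043, and the inhibitor Nfkbia at 0.45.

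The other 11 genes with the smallest p above 0 all had an adjusted p of 0.422 (limma), so none passed the test, and they are given as a description. In all 12, Nfkbib included, the 4b change had opposite signs in the 2 genotypes and the transgenic arrays did not overlap between vehicle and 4b. Since these genes were chosen by that contrast, this says nothing beyond the choice, and the share over all genes was 8.58%.

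Ulk1, the kinase that starts autophagy, stood at 9.78, 9.87, 9.64 and 9.90 in wild-type mice given vehicle and at 9.17, 9.57, 9.65, 9.81 and 10.02 in those given 4b. In transgenic mice it was 9.73, 9.62, 10.10 and 9.47 with vehicle and 11.09, 10.85 and 10.73 with 4b. The 3 transgenic arrays with 4b were the highest of the 16, and the other 3 groups overlapped one another. The interaction was 1.31 ± 0.26, with an interval from 0.76 to 1.86. It ran from 0.89 to 1.44 over the alternatives, and the other Ulk1 probe had the same sign.

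Hbegf, a growth factor that binds the EGF receptor, had the largest interaction of the 12. It stood at 8.21, 10.24, 7.82 and 6.81 in transgenic mice given vehicle and at 11.21, 11.00 and 11.15 in those given 4b. In wild-type mice it ran from 9.48 to 10.35 with vehicle and from 7.76 to 9.98 with 4b. The vehicle arrays of the transgenic mice were the most scattered and the 4b arrays the tightest. The 4b change was 2.85 ± 0.62 in transgenic mice, 7.23-fold, and -0.72 ± 0.54 in wild-type mice, and the interaction was 3.58 ± 0.82 with an interval from 1.83 to 5.33.

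Gfer, a sulfhydryl oxidase of the mitochondrial intermembrane space, had a called genotype difference with vehicle, unlike the others of the 12. With vehicle it was lower in transgenic mice (10.81, 10.73, 10.96 and 10.95) than in wild-type mice (11.60, 11.87, 11.53 and 11.60), by -0.79 (adjusted p = 0.00464, limma). With 4b the transgenic arrays stood at 11.70, 11.76 and 11.40, overlapping the wild-type arrays with 4b at 11.46 to 11.74. The interaction was 0.82 ± 0.18. The genotype difference of Gfer with 4b was 0.03. Hbegf was also lower in transgenic mice with vehicle, by -1.65, but its arrays overlapped between genotypes and it was not called.

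The remaining 8 genes had interactions from 0.71 for the zinc finger gene Zfp574 to 1.16 for Ttc24 and 1.16 for Zscan12. Cstf1, a subunit of the cleavage stimulation factor that acts at 3' ends of transcripts, was at 0.93 ± 0.21. Bag5, a co-chaperone of Hsp70, was at 0.97 ± 0.24, and Brix1, a ribosome assembly factor, at 0.73 ± 0.18. Ager, the receptor for advanced glycation end products, was at 0.98 and Pcbp3, a poly(rC) binding protein, at 0.91. Ttc24 and Ager were dim, detected on 3 and 3 of the 4 wild-type vehicle arrays and on 2 and 2 of the 4 transgenic vehicle arrays, so their log2 differences are compressed by the offset.

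**Figure D2:**
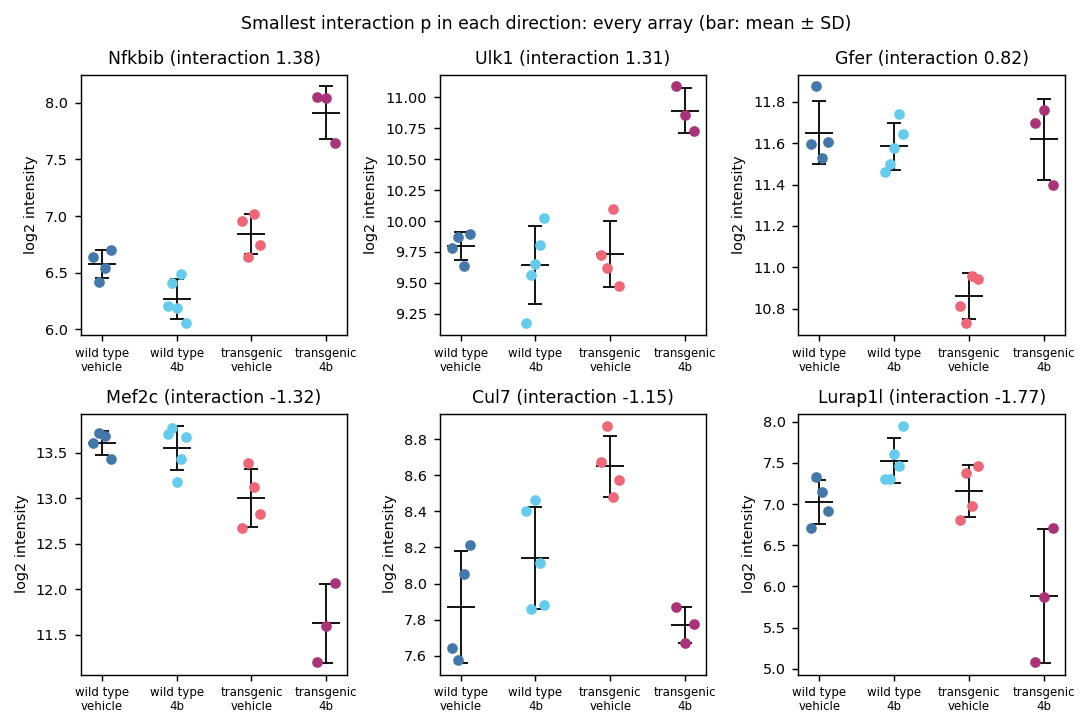
The log2 intensity of the 3 genes with the smallest interaction p in each direction, 1 point per animal, with bars for the group mean and SD (n = 4, 5, 4 and 3). For Nfkbib and Ulk1 the transgenic mice given 4b stand above the other groups, for Mef2c and Lurap1l below them, and for Gfer and Cul7 they overlap the wild-type mice.

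The 12 genes with the smallest p below 0 all had an adjusted p of 0.422 (limma), and none passed. Mef2c, a transcription factor of muscle differentiation and a known target of class II histone deacetylases, stood between 13.43 and 13.72 in wild-type mice given vehicle and between 13.18 and 13.77 in those given 4b. In transgenic mice it was 12.67, 13.39, 13.12 and 12.83 with vehicle and 11.20, 11.60 and 12.07 with 4b. The 4b arrays of the transgenic mice were the lowest, and the vehicle arrays of the transgenic mice already lay below every wild-type vehicle array. The 4b change was -1.38 ± 0.22 in transgenic and -0.06 ± 0.19 in wild-type mice, with an interaction of -1.32 ± 0.29 (interval -1.94 to -0.71). It stayed below 0 in every alternative, from -1.54 to -0.96.

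Cul7, the scaffold of a cullin ubiquitin ligase, and Ptprd, a receptor tyrosine phosphatase, shared another pattern. Cul7 was 8.67, 8.87, 8.48 and 8.57 in transgenic mice given vehicle and 7.87, 7.67 and 7.77 in those given 4b, with wild-type arrays from 7.58 to 8.21 with vehicle and 7.86 to 8.46 with 4b. Its genotype difference was 0.78 with vehicle (adjusted p = 0.0206, limma) and -0.37 with 4b, and the interaction -1.15 ± 0.26. For Ptprd the genotype difference was 1.02 with vehicle (adjusted p = 0.0166, limma) and -0.33 with 4b, and the interaction was -1.35 ± 0.31. Both genes were thus higher in transgenic than in wild-type mice with vehicle and not with 4b, and Gfer above is the mirror image. The interaction that would test this was not called for any of the 3.

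Cd28, a costimulatory receptor of T cells, had the lowest interaction of the 12, -1.85 ± 0.43. It stood at 5.94, 6.64 and 5.81 in transgenic mice given 4b and between 7.18 and 8.09 in those given vehicle, while wild-type arrays ran from 7.25 to 8.69. Its other probes had the same sign. The leukocyte score was 0.73, 0.39 and -1.09 on these 3 arrays and -1.45, -0.51, -0.09 and 2.88 on the transgenic vehicle arrays, and the part of leukocytes in the Cd28 values was not tested.

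Lurap1l, an adaptor of unsettled role in muscle, was at 5.08, 5.87 and 6.71 in transgenic mice given 4b against 6.81 to 7.47 with vehicle, and its interaction was -1.77 ± 0.40. It was 1 of the 17 genes called without replicate 3 of the transgenic mice given 4b, at -2.18 (adjusted p = 0.0246, limma). Srpk3, a muscle-specific kinase whose gene is a MEF2 target in mice, was at 9.13, 9.13 and 10.28 with 4b against 10.70 to 11.66 with vehicle in transgenic mice, and its interaction was -1.47 ± 0.39. In both genes replicate 3 of the transgenic mice given 4b lay nearest to the vehicle arrays. The others were Dynll2, a dynein light chain (-1.35), Armcx1, a mitochondrial outer membrane protein (-1.46), Podn, a small leucine-rich proteoglycan of matrix (-1.56), Frmd6, a FERM protein of the Hippo pathway (-1.07), Zfp979 (-1.15) and Arhgef25 (-0.80). For 10 of the 12 the sign of the 4b change was opposite in the 2 genotypes, Mef2c and Srpk3 being the exceptions. Arhgef25 was the only one of the 24 whose vehicle and 4b arrays did not overlap in wild-type mice, and 1 of its 2 other probes had the opposite sign.

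**Figure D3:**
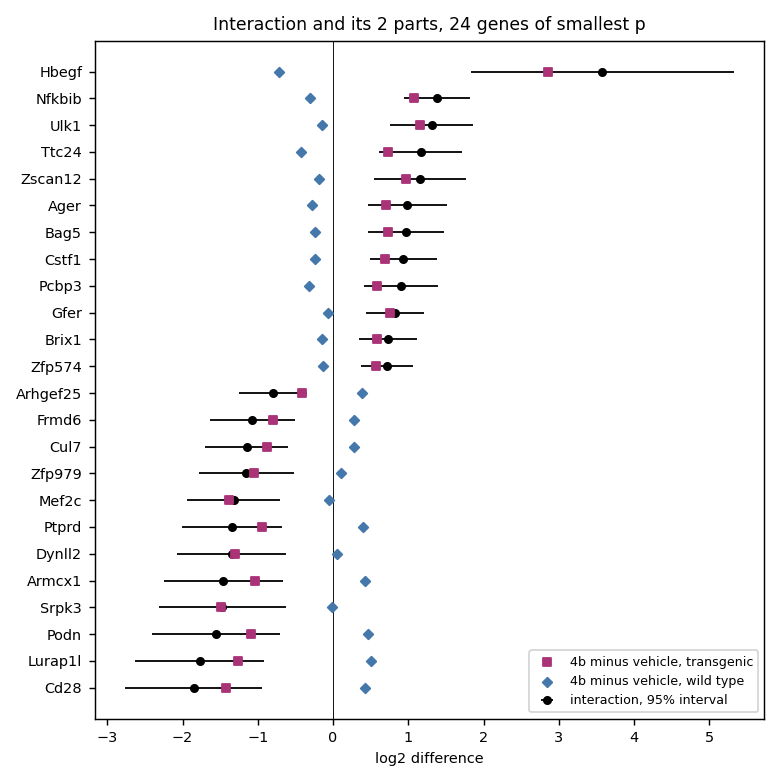
The interaction of the 24 genes with its 95% interval (black), beside the 4b change in transgenic mice (squares) and in wild-type mice (diamonds), in log2 units. The squares lie farther from 0 than the diamonds in all 24 genes, from -1.49 to 2.85 against -0.72 to 0.50.

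Gene lists are described by how many members lay above or below 0 and by their median, beside the median of all genes, -0.0039. In each of the 33 lists 0 members were called in the interaction (0% of all genes). Beside a count at an unadjusted p under 0.05 stands the share over all genes, 6.07% above and 4.02% below 0. The members of a list share animals and are not independent. Over the alternatives the median kept its sign in 11 lists, 4 above 0 (atrophy, autophagy, proteasome and p53) and 7 below 0 (myogenic, neuromuscular junction, chaperone, oxidative phosphorylation, lipid synthesis, interferon, and smooth muscle with pericytes), and it turned in at least 1 alternative in the other 22. The tendon list turned only with its own score as a covariate, which removes the mean interaction of the list by construction. That turn therefore says nothing about how stable its sign was. The leukocyte list turned under its own score too, among other alternatives. Members named beyond the 3 with the smallest p of a list were picked after their values were seen. Since the 3 were chosen by the interaction p, separation of their transgenic arrays follows in part from that choice. Over all genes the transgenic arrays did not overlap between vehicle and 4b for 8.58%.

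The list furthest above 0 was that of muscle atrophy and FoxO targets, genes that FoxO transcription factors switch on in wasting muscle. Of its 25 tested genes 21 were above 0, with a median of 0.72, from a median 4b change of 0.54 in transgenic and -0.09 in wild-type mice. At an unadjusted p under 0.05 there were 8 above 0 and 0 below. The members named by p were Ulk1, Ctsl and Cdkn1a. Ctsl, a lysosomal cathepsin, was at 8.23, 8.71 and 8.25 in transgenic mice given 4b, above all 4 vehicle arrays at 6.37 to 7.52, and its interaction was 1.67 ± 0.44. Cdkn1a, which encodes the cell cycle inhibitor p21, was at 13.71, 13.67 and 12.65 with 4b and at 13.22, 9.99, 11.16 and 11.04 with vehicle in transgenic mice. One vehicle animal thus lay among the 4b animals. The interaction of Cdkn1a was 2.65 ± 0.91 (interval 0.71 to 4.60, adjusted p = 0.454, limma), its other probes had the same sign, and it ran from 1.12 to 3.27 over the alternatives.

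Fbxo32 and Trim63, the muscle ubiquitin ligases atrogin-1 and MuRF1, fell outside the naming rule and are given because the list is known by them, after their values were seen. Their interactions were 2.06 ± 0.88 and 1.49 ± 0.59, with 4b changes of 1.70 and 1.38 in transgenic and -0.35 and -0.11 in wild-type mice. The score of the atrophy list, the mean of its genes against wild-type vehicle, was 1.40, 1.20 and 1.0 in transgenic mice given 4b and 1.11, 0.01, 0.77 and 0.33 in those given vehicle. The groups overlapped through replicate 1 of the vehicle group. In wild-type mice the score lay between -0.13 and 0.08 with vehicle and between -0.41 and 0.14 with 4b. The median of the list stayed above 0 in all alternatives, with its lowest value, 0.29, without the 6 arrays of high leukocyte score and 0.34 with the tendon score as a covariate.

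Lists that overlap this one lay above 0 as well. For autophagy and lysosome 19 of 26 genes were above 0, with a median of 0.26 (0.081 without the 6 arrays of high leukocyte score), and 3 had an unadjusted p under 0.05: Ulk1, Ctsl and Map1lc3b (0.72 ± 0.28), which encodes the LC3 protein of the autophagosome. The vesicle and cargo genes Gabarapl1 (0.92), Sqstm1 (0.68) and Wipi2 (0.61) did not reach that level, and Becn1 (-0.13), Atg5 (-0.21) and Ctsb (-0.21) lay below 0. For the proteasome, the protease that degrades ubiquitin-tagged proteins, 26 of 28 genes were above 0 with a median of 0.27 and 2 had an unadjusted p under 0.05, led by the ATPase subunits Psmc2 (0.69 ± 0.22) and Psmc3 (0.52 ± 0.22), with Psmb4 next (0.35 ± 0.16). The proteasome score was 0.43, 0.47 and 0.14 in transgenic mice given 4b and -0.05 to 0.30 with vehicle, so replicate 3 lay within the vehicle range. Its median was 0.04 without the 6 arrays of high leukocyte score.

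The glucocorticoid response list had 16 of 19 genes above 0 and a median of 0.43, with 1 gene at an unadjusted p under 0.05, the metallothionein Mt2 (1.55 ± 0.67, but -0.036 without the 6 arrays of high leukocyte score). Klf15 (0.80) and Per1 (0.92) came next. The median change with 4b was 0.60 in transgenic and 0.16 in wild-type mice. This list gave -0.01 without the 6 arrays of high leukocyte score. In the p53 and cell cycle arrest list 11 of 18 were above 0, with a median of 0.25 that ran from 0.04 with array weights to 0.36 with all probes and was 0.098 without background correction. Gadd45b, a stress-induced growth arrest gene, was at 1.67 ± 0.52 and the death receptor gene Fas at 0.71 ± 0.29, while the cyclin gene Ccnd1 was at -1.72. For the integrated stress and unfolded protein response 13 of 23 were above 0 with a median of 0.08, from -0.12 to 0.17 over the alternatives; Ppp1r15a, a phosphatase subunit that ends the stress response, was at 1.46 ± 0.54 and Vldlr at 0.61. Edem1 was not well above background in either vehicle group. Its mean level in transgenic mice was at least 1.08-fold higher with 4b than with vehicle, a fold given without an error and not tested.

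The circadian clock list had a median of 0.61, with 11 of 17 genes above 0 and 4 at an unadjusted p under 0.05, all above 0. Arntl and Clock form the activator of the loop, Per and Cry genes its inhibitors, and the nuclear receptor gene Rora drives Arntl. Arntl was at 8.75, 8.96 and 8.39 in transgenic mice given 4b and at 8.39, 7.12, 6.97 and 7.72 with vehicle; in wild-type mice it ran from 6.35 to 8.72 with vehicle and from 5.77 to 8.28 with 4b. One wild-type animal in each treatment was thus as high as the transgenic animals given 4b or nearly so. Its interaction was 1.84 ± 0.78. Clock, at 0.87 ± 0.29, and Rora, at 0.84 ± 0.31, did not overlap between vehicle and 4b in transgenic mice, beside 8.58% of all genes. The output gene Dbp, outside the naming rule and picked after its value was seen, was at -1.88 ± 0.92, so activator and output genes did not have one sign. The sources used here state no times of death, and their part in these values was not tested. The clock median lay between 0.32 and 0.80 when arrays were left out singly and was -0.14 with the tendon score as a covariate.

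E-box sequences are where the Clock and Arntl proteins bind, so the tested clock genes with an E-box close to their start are shown. The letters CACGTG, the same on both strands, were searched in the 250 bases before each start in RefSeq's GRCm38.p6 table: 6.02% of 32851 windows held them, and 5 of the 17 clock genes found in the table did (Bhlhe41, Ciart, Cry1, Per1 and Tef). Capitals mark the E-box nearest the start, and the Ciart stretch holds a further one in lower case. A gene was counted if any of its windows held the letters, so the count of genes and the share of windows have unlike units. Tef has another window with the letters, not printed. The sequences run 5' to 3' on the strand of the gene.
Per1, chr11:69098753-69098818, plus strand: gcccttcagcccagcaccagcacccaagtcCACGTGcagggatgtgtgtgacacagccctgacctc
Ciart, chr3:95882237-95882302, minus strand: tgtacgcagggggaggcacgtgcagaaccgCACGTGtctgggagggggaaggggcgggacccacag
Bhlhe41, chr6:145865538-145865603, minus strand: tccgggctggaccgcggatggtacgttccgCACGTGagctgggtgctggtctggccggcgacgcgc
Tef, chr15:81802516-81802581, plus strand: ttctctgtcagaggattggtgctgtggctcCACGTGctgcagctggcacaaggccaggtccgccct

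The interaction was 0.92 for Per1, an inhibitor of the loop, 1.05 for Ciart, a clock-associated repressor, 0.10 for Bhlhe41, a repressor that binds the same letters, and -0.30 for Tef, an output factor. The 4 tested clock genes with the letters had a median interaction of 0.51, and the 10 without them in the window a median of 0.65. A match describes the letters only. The FoxO letters GTAAACA, on either strand, stood in 3.17% of windows. Counted by gene and not by window, 1 of the 23 atrophy genes found in the table held them, Trim63. It is shown here with the letters in capitals in their reverse complement.
Trim63, chr4:134314896-134314962, plus strand: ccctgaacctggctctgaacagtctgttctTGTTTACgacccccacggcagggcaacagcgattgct

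In the list of myogenic regulators and MEF2 factors 11 of 18 were below 0, with a median of -0.18, from -0.32 to -0.07 over the alternatives. Besides Mef2c, Myf6, the MRF4 factor of adult fibres, had an unadjusted p under 0.05 at -1.19 ± 0.44. It stood at 10.42, 10.15 and 11.33 in transgenic mice given 4b and at 11.28 to 12.67 with vehicle, and replicate 3 reached into the vehicle range. Mef2b (0.69), Mef2a (0.27) and Mef2d (0.22) were above 0, so the MEF2 genes did not share a sign.

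For excitation-contraction coupling, the calcium release that links the nerve impulse to force, 12 of 18 genes were below 0 and the median was -0.24, from -0.39 to 0.13 over the alternatives. Casq1, the fast-fibre calsequestrin that stores calcium in the sarcoplasmic reticulum, was at 7.60, 8.14 and 10.32 in transgenic mice given 4b, at 9.17 to 11.17 with vehicle and at 12.28 to 13.03 in all wild-type mice. Its interaction was -1.73 ± 0.70. Asph was at -1.13, but 2 of its other probes had the opposite sign, and Stac3 was at -0.54. Casq1 turned to 0.18 and Asph to 0.08 without the 6 arrays of high leukocyte score, which leaves 1 transgenic animal given 4b, replicate 3.

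The slow fibre list had 16 of 17 genes below 0 and a median of -0.45, but from the other side: the median 4b change was 0.56 in wild-type mice and 0.10 in transgenic mice. Casq2, the slow and cardiac calsequestrin, led it at -2.15 ± 0.66, from -1.91 in transgenic and 0.24 in wild-type mice. It was at 9.98, 11.02, 8.80 and 9.98 in transgenic mice given vehicle and at 7.50, 7.81 and 8.79 in those given 4b, against 6.60 to 8.57 in wild-type mice. The transgenic vehicle arrays were thus the highest of all, and those with 4b overlapped the wild-type mice. Myl6b (-1.43) was not well above background in any wild-type vehicle array, and Fhl2 was at -1.44. The 4b changes of Myl6b and Fhl2 were -1.08 and -1.03 in transgenic and 0.36 and 0.41 in wild-type mice. Casq2, Myl6b and Fhl2 thus changed more in transgenic mice, unlike the median of the list. Sln, sarcolipin, which slows the calcium pump, ran from 13.06 to 14.20 on the 7 transgenic arrays and from 7.55 to 10.22 on the 9 wild-type arrays, and its interaction was -1.11 ± 0.63 (adjusted p = 0.543, limma). Array weights turned the list's median to 0.09, and leaving out the 6 arrays of high leukocyte score to 0.08. In the fast fibre list 13 of 20 were below 0 with a median of -0.05, from -0.17 to 0.14, with Casq1, Tpm1 (-0.71) and Ampd1 (-0.56) first. In the neuromuscular junction list 13 of 18 were below 0 with a median of -0.36 and 0 at an unadjusted p under 0.05; Lrp4, the agrin receptor, was at -0.75, the acetylcholine receptor subunit gene Chrnb1 at -0.74 and Ache at -0.70.

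Of 37 chaperone genes 23 were below 0, the median was -0.12, and 9 had an unadjusted p under 0.05, 6 of them below 0. The small heat shock genes of muscle Hspb3 (-1.43 ± 0.43) and Cryab (-0.98 ± 0.31) and the Hsp40 gene Dnaja4 (-1.03 ± 0.31) led. Each had transgenic 4b arrays below all transgenic vehicle arrays, but they were chosen by the interaction p. Over all genes these arrays did not overlap for 8.58%. Cryab was at 11.49, 11.66 and 12.27 with 4b and at 12.32 to 12.96 with vehicle in transgenic mice. On the other side, the Hsp40 gene Dnajb6, whose product is known to hold back polyglutamine aggregation, was at 0.56 ± 0.23.

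Matrix and tendon genes lay furthest below 0. In the extracellular matrix list 23 of 28 genes were below 0, with a median of -0.70 (-0.40 without replicate 1 of the wild-type vehicle group), from a median change of -0.29 in transgenic and 0.43 in wild-type mice, and 7 were below 0 at an unadjusted p under 0.05. Tgfb2, a growth factor that promotes matrix, was at -1.01 ± 0.36, and Bgn, the proteoglycan biglycan, at -1.42 ± 0.57. Col6a2, a chain of the collagen around fibres, was at -1.40 ± 0.56. It was not well above background in any transgenic mouse given 4b, and it was detected on only 2 of the 4 transgenic vehicle arrays. The vehicle arrays stood at 5.18, 7.34, 5.41 and 6.39 and the 4b arrays at 5.08, 4.90 and 5.15, so no smallest fold is given. Of the tendon markers all 9 tested were below 0, with a median of -1.01 (-0.54 without background correction) and 5 at an unadjusted p under 0.05. Scx, the transcription factor of tendon cells, was at 6.35, 6.76 and 8.32 in transgenic mice given 4b and at 8.07 to 8.99 with vehicle, an interaction of -1.58 ± 0.54. Fmod, fibromodulin, was at -1.97 ± 0.73, with another probe at -0.75, and Clec3b at -1.01 ± 0.40.

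The tendon score was -1.10, -1.19 and -0.52 in transgenic mice given 4b and -0.67, 0.15, -0.48 and 0.53 in those given vehicle. In wild-type mice it was -0.56, 0.09, 0.27 and 0.20 with vehicle and -0.09, 0.83, 0.23, 0.81 and 0.28 with 4b. The matrix score was -0.98, -1.17 and -1.01 in transgenic mice given 4b, within the range of the vehicle animals, -1.33 to -0.41, and ran from 0.08 to 1.25 in wild-type mice given 4b. The part of tendon in these results was not tested. With the tendon score as a covariate 0 genes were called, 276 had an unadjusted p under 0.05 in place of 1039, and the median SE was 0.391. The medians of the matrix and macrophage lists were then 0.26 and 0.39. The tendon median was 0.25, but the score is the mean of these same tendon genes. The fit thus removes their mean interaction by construction, and that median is no result. Smooth muscle and pericyte markers had 9 of 14 below 0 and a median of -0.17: Rgs5, a pericyte gene, was at -0.92 ± 0.28, the smooth muscle genes Smtn at -1.42 and Acta2 at -1.04. Endothelial markers had a median of 0.03 (Cdh5 0.60, Eng -0.44, Ramp2 -0.33), Schwann cell markers 0.02 (Cnp 0.46, with another probe of opposite sign, Mag 0.77, Pmp22 -0.52) and satellite cell markers -0.12 (Chodl -0.84, Vcam1 1.24, Notch3 -0.23).

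**Figure D4:**
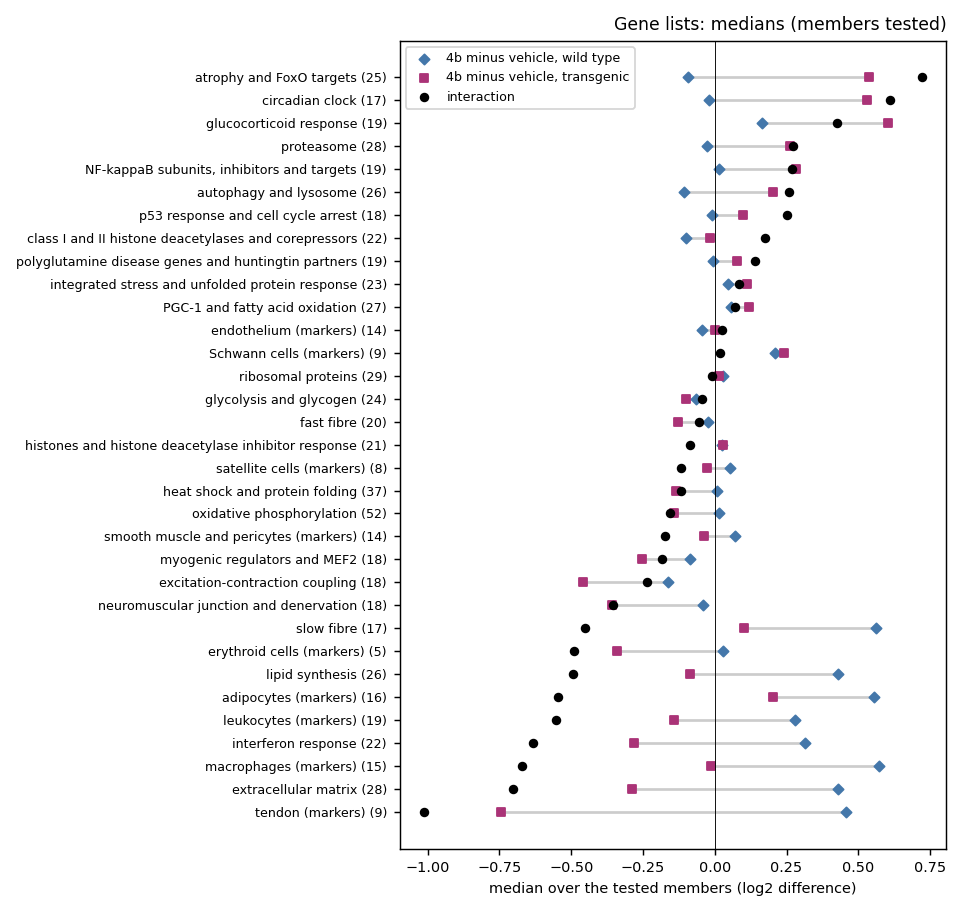
The median over the tested members of each of the 33 lists of the 4b change in wild-type mice (diamonds), in transgenic mice (squares) and of the interaction (black), in log2 units. The atrophy list lies furthest right at 0.72 and the tendon markers furthest left at -1.01; no member of any list was called in the interaction.

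Lipid and immune genes lay below 0 with their larger median 4b change in wild-type mice. In the lipid synthesis list 23 of 26 were below 0 with a median of -0.49 (-0.26 and -0.29 without replicate 1 or 3 of the wild-type mice given 4b), from 0.43 in wild-type and -0.09 in transgenic mice, and 0 had an unadjusted p under 0.05. Acly, which makes cytosolic acetyl-CoA, was at 13.86 and 13.08 on replicates 1 and 3 of the wild-type mice given 4b and at 10.65 to 10.85 on the other 3. Its interaction was -1.68 ± 0.86, and Fdps of sterol synthesis was at -0.72. Dhcr7, of the same pathway, went undetected in every wild-type vehicle and every transgenic 4b animal, so no interaction is given for it. Its mean level in wild-type mice was at least 1.05-fold higher with 4b than with vehicle, a fold given without an error and not tested. The adipocyte score was 2.44 and 1.91 on those same 2 arrays and between -0.49 and -0.24 on the other 3, and the adipocyte list had 11 of 16 below 0 and a median of -0.55 (Thrsp -2.63, Plin4 0.64), while Retn went undetected in all 7 transgenic animals. The adipocyte score moved with these values, and the part of fat in them was not tested.

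The interferon response list had 21 of 22 below 0 and a median of -0.63 (-0.055 with the tendon score as a covariate), with 3 at an unadjusted p under 0.05: Oasl2 (-1.32 ± 0.48), Isg15 (-0.70 ± 0.30), a ubiquitin-like protein, and Ifi27 (-1.25 ± 0.54). Oasl2 was at 5.64, 5.28 and 5.67 in transgenic mice given 4b, within the 4.99 to 6.76 of those given vehicle, and higher in wild-type mice with 4b (7.17 to 7.77) than on 3 of 4 vehicle arrays (6.18, 6.67, 7.52 and 6.52). Leukocyte markers had 18 of 19 below 0 and a median of -0.55, with 0 at an unadjusted p under 0.05 (Laptm5 -1.20, H2-Ab1 -1.32, H2-Aa -1.19). Macrophage markers had 13 of 15 below 0 and a median of -0.67 (Adgre1 -1.16, Pf4 -1.66, Folr2 -1.54). The leukocyte score ran from -1.08 to 1.71, -0.45 to 1.99, -1.45 to 2.88 and -1.09 to 0.73 in the 4 groups, in the order above. Without the 6 arrays where it exceeded 0, 411 genes had an unadjusted p under 0.05 and 1 was called, the red cell anion exchanger gene Slc4a1, with replicate 3 as the only transgenic animal given 4b and its spread taken from the other groups. Slc4a1 was at 9.38 on replicate 3 of the transgenic mice given 4b and at 4.62 to 5.68 on the other 15 arrays, and it was not well above background on the transgenic vehicle arrays. The other 2 erythroid markers named were Hba-a1 (-0.81) and Hbb-b2 (-0.53), and 4 of the 5 tested were below 0, with a median of -0.49.

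**Figure D5:**
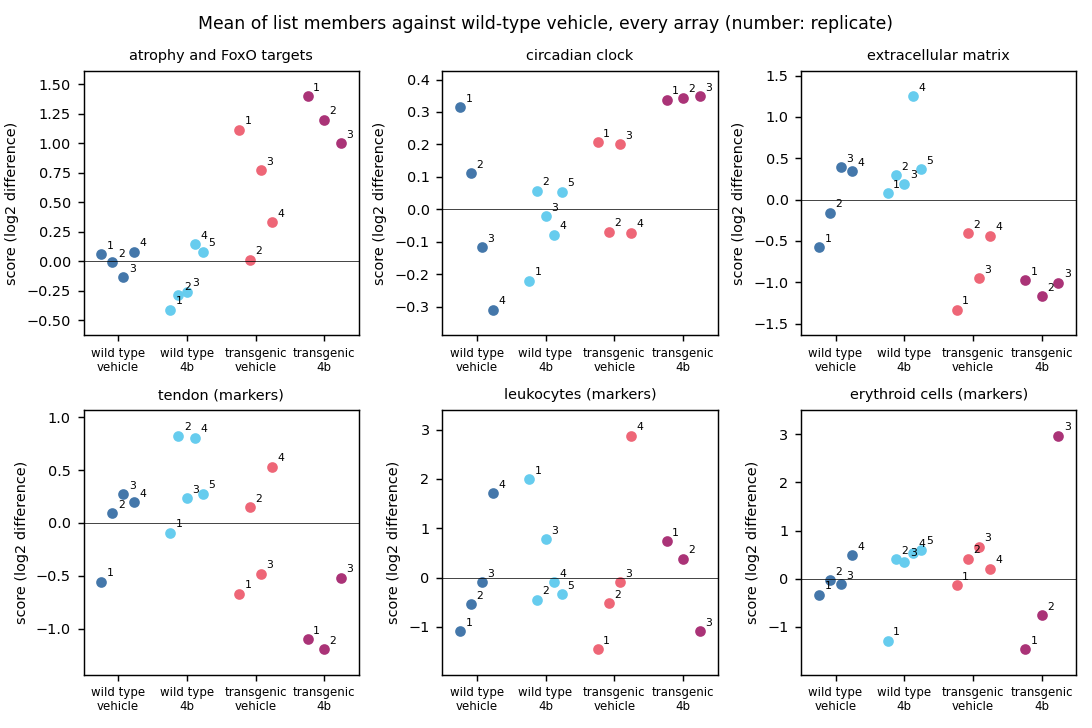
Scores of 6 lists on every array, each the mean log2 difference of the list's genes from the wild-type vehicle mean; the numbers are replicates. In transgenic mice given 4b the atrophy score runs from 1.0 to 1.40, against 0.01 to 1.11 with vehicle, and the tendon score from -1.19 to -0.52, against -0.67 to 0.53 with vehicle. The leukocyte and erythroid scores mark single arrays such as replicate 3 of that group at 2.98 for red cells.

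Among class I and II histone deacetylases and their corepressors 13 of 22 were above 0, with a median of 0.17, from -0.04 to 0.27 over the alternatives. Hdac1, a class I enzyme of the Sin3, NuRD and CoREST complexes, was at 7.75, 7.72 and 7.77 in transgenic mice given 4b, below all 4 vehicle arrays at 7.86 to 8.47. Its interaction was -0.72 ± 0.28 (adjusted p = 0.458, limma). Rcor1, the CoREST scaffold, was at -0.72 ± 0.32 and Sin3a, the Sin3 scaffold, at 0.57 ± 0.22. Hdac3, the class I enzyme of the NCoR complex, was at 0.0092 ± 0.21, and its sign turned under 12 of the alternatives. The list of histones and genes known to respond to histone deacetylase inhibitors had 12 of 21 below 0 and a median of -0.09, with Gadd45b, Cdkn1a and Txnip (0.90) first.

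Of the polyglutamine disease genes and huntingtin partners 13 of 19 were above 0, with a median of 0.14, from -0.19 to 0.19 over the alternatives. Htt was dim, detected on 4 of 4, 2 of 5, 2 of 4 and 1 of 3 arrays in the group order above, and its interaction was 0.22 ± 0.24 (interval -0.29 to 0.74). Atxn1, the gene of spinocerebellar ataxia type 1, was at -0.64 ± 0.31. Prnp, whose promoter drives the transgene, was at 14.55, 15.09, 14.69 and 14.27 in transgenic mice given vehicle, at 13.99, 13.99 and 14.11 in those given 4b and at 13.32 to 13.77 in wild-type mice. Every transgenic array with 4b lay below every transgenic array with vehicle and above every wild-type array. The interaction of Prnp was -0.67 ± 0.24 (interval -1.17 to -0.16, adjusted p = 0.456, limma), from -0.62 ± 0.18 in transgenic and 0.05 ± 0.16 in wild-type mice. Whether the probe reads the endogenous transcript, transgene-derived sequence or both was not tested. Syne1, which encodes the nuclear envelope linker nesprin-1, stayed below detection in all 7 transgenic mice, so its interaction of 2.19 ± 0.88 came from the wild-type mice alone, where it was 8.42, 9.01, 8.86 and 6.79 with vehicle and 4.58 to 7.52 with 4b. Another Syne1 probe had the same sign but an interaction of only 0.46 ± 0.45. The sex-linked Xist had an interaction of 1.29 ± 1.78, with males and females in every group.

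Oxidative phosphorylation genes had 46 of 52 below 0 with a median of -0.16 (-0.21 to -0.015 over the alternatives) and 1 at an unadjusted p under 0.05, the complex II subunit gene Sdhc (-0.50 ± 0.21), ahead of Uqcrc1 (-0.39) and Ndufb3 (-0.46). The score of the list was -0.42, -0.08 and 0.08 in transgenic mice given 4b and -0.09 to 0.07 with vehicle, so replicate 1 carried most of the difference. PGC-1 and fatty acid oxidation genes had 16 of 27 above 0 and a median of 0.07, with the uncoupling protein gene Ucp3 at 1.44 ± 0.48, Mlycd at 0.92 ± 0.32 and the coactivator gene Ppargc1b at -1.05 ± 0.48. Ucp3 stood at 10.45, 10.39 and 10.24 in transgenic mice given 4b and at 9.14 to 10.05 in those given vehicle. Glycolysis and glycogen genes had 14 of 24 below 0 and a median of -0.05 (Pgam1 -0.68, Gyg 0.52, Pfkfb3 0.60). Ribosomal protein genes had 16 of 29 below 0 and a median of -0.0095 (Rps25 -0.54, Rpl10 0.44, Rpl3 -0.53).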

How the data were processed

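Probe intensities, linear and not normalised per the file headers, each with its detection p-value, were deposited for 16 arrays. A second deposited table holds log2 values that the authors made; they equalled quantile-normalised log2 intensities without background correction to within 5e-09, and the sources used here do not name the method. Intensities were corrected with limma 3.58.1 (R 4.3.3) by normexp from the detection p-values (offset 16), logged and quantile normalised, which cannot measure a shift of most genes in one direction. Probes were named from the platform annotation (23978 of 25697 with 1 symbol). Each gene was represented by its probe of highest mean, and 2448 genes had more than 1. Older list symbols were matched to current ones. A limma model with 4 group means (residual degrees of freedom 12, prior 3.09) gave all contrasts, two-sided, with Benjamini-Hochberg adjustment over 10295 rows. It was tested on simulated data first. For Edem1 and Dhcr7, where no array of a group detected the probe, a fold is given as "at least". It compares group means, in which any undetected array of the other group counts at its measured value. This fold has no standard error and was not tested, so "at least" refers to the background level and not to the spread between animals. Precision is limited by the number of animals. Replicates are numbered in order of deposit and pair nothing.

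Genes were named by rule: the 12 smallest p in each direction, leaving out RIKEN, LOC, Gm and BC identifiers, the 3 smallest p of each list, and 12 genes known from an earlier account. Members, lists and tests were chosen with earlier results of these data known. Alternatives covered background, normalisation, detection filters, array weights, variance model, covariates and leaving out arrays; 3 of them were added after the data were seen.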

Additional observations from a re-analysis of the deposited data

Results flagged for a closer look

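A sample was marked where, in a group of 4 or 5 animals, the highest or lowest value lay far from the rest by Dixon's test at its 95% critical value. Of 459 groups tested, over 119 genes, 33 list scores and the detected share, 28 were marked (6.1%), where chance marks about 1 in 20. Wild-type vehicle replicate 4 and wild-type 4b replicate 4 held 6 marks each, and transgenic vehicle replicate 1 held 4. The group of 3 transgenic mice given 4b was not tested this way.

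On wild-type vehicle replicate 4 the scores of adipocyte markers (1.76), of the glucocorticoid response (0.66) and of NF-kappaB genes (0.22) were highest, Thrsp (10.03) was highest, and Arhgef25 (8.60) and Ampd1 (14.57) were lowest. This animal also had the highest leukocyte score of its group, and the part of fat and leukocytes in these values was not tested. On replicate 1 Ager (5.45) and Fmod (7.87) were lowest, on replicate 2 the Schwann cell score (-0.22), and on replicate 3 Zscan12 (10.21).

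On wild-type 4b replicate 4 the matrix score (1.25) and the score of histones and histone deacetylase inhibitor response (0.23) were highest, as were Ttc24 (5.86), Cdkn1a (10.35), Arntl (8.28) and Pfkfb3 (6.99). Without this animal the Arntl and Cdkn1a interactions kept their sign. On replicate 1 Hba-a1 (12.79), the erythroid score (-1.29) and the oxidative phosphorylation score (-0.22) were lowest. Srpk3 (10.99) was highest on replicate 2, Brix1 (10.74) lowest on replicate 3, and the slow fibre score (-0.18) lowest on replicate 5.

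On transgenic vehicle replicate 1 Tnip2 (7.71) and Psmb4 (14.05) were highest and Asph (10.57) and Ifi27 (10.98) lowest. Myl6b (5.96) was lowest on replicate 3. Xist (8.20) was highest on replicate 4, the only female of that group by Eif2s3y and Xist.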

How the results depend on the processing

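The interaction called 0 genes in the reported fit and in 31 of 37 alternatives. It called 1 without a filter on detection, 1 with probes detected on all 16 arrays, both Nfkbib, 89 with array weights and 1, Slc4a1, without the 6 arrays of high leukocyte score; leaving out single arrays gave 0 to 17, with 17 without replicate 3 of the transgenic mice given 4b and 1 without replicate 1 of the transgenic mice given vehicle. The cause was not tested. Without a filter 18312 rows were tested and with all 16 arrays 7101. For 4b in transgenic mice, 1 call in the reported fit, there were 4 without background correction, 4 with the deposited log2 values, 3 each with an offset of 50, cyclic loess, detection on all 16 arrays, the ordinary test, the leukocyte score and the adipocyte score, and 1778 with array weights. There were 2 without the 6 arrays of high leukocyte score, and 0 each with median scaling, all probes, weights per group, the detected share, Xist or the tendon score as covariate, linear quantile normalisation and without the 2 animals numbered in 3 digits. Leaving out single arrays gave 0 to 420, with 420 without replicate 3 of the transgenic mice given 4b and 344 without replicate 1 of those given vehicle. Wild-type mice gave 0 to 0. The Pearson correlation of the 2 changes ran from -0.1369 to 0.08925, and the interaction in the detected share from -3.149 to -0.9542. No paired analysis was possible because the labels carry animal numbers and no replicate numbers shared between groups.

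Reversed signs, none of them called in the reported fit, came mostly from 2 alternatives added after the data were seen. Without the 6 arrays of high leukocyte score the interaction was 0.18 for Casq1, 0.083 for Asph, -0.18 for Cxcl1, -0.036 for Mt2, 0.28 for Ppargc1b, 0.054 for Lrp4, 0.053 for Ndufb3, 0.26 for Fdps, -0.12 for Vldlr, -0.31 for Cdh5, 0.16 for Ampd1, 0.21 for Hba-a1 and 2.28 for Hbb-b2. With the tendon score as covariate it was 0.10 for Fmod, 0.0032 for Bgn, 0.27 for Adgre1, 0.79 for Pf4, 0.30 for Folr2, 0.028 for Pmp22, 0.51 for Chodl, -0.0051 for Plin4, 0.22 for Ramp2, 0.38 for Hba-a1, 0.66 for H2-Ab1, 0.70 for H2-Aa and 0.66 for Hbb-b2. Fmod is a member of the tendon score, so its value there was adjusted partly by itself. Hdac3 was -0.077 with array weights, -0.035 with the detected share, -0.0023 with Xist, -0.031 with the leukocyte and -0.019 with the adipocyte score as covariate, -0.062 without the 2 animals numbered in 3 digits, and from -0.17 to 0.13 with single arrays left out. With single arrays left out Slc4a1 ran from -0.077 to 2.23 and Hbb-b2 from -1.69 to 0.40. The signal over background limits Ttc24, Ager, Htt, Syne1, Slc4a1, Retn, Dhcr7, Edem1, Myl6b and Col6a2, which were not detected on all arrays. Other named genes were missed on some arrays too, among them Lurap1l, Podn, Ctsl, Oasl2, Mt2 and Fhl2. In transgenic mice given 4b Podn was detected on 1 of 3 arrays and Lurap1l on 2 of 3.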

Other observations

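Genes without a place in the 33 lists appear among the 17 called when replicate 3 of the transgenic mice given 4b was left out, a choice made after the data were seen. Above 0 were the acute phase gene Saa3 (2.38 ± 0.36), the inositol trisphosphate kinase gene Itpkc (2.69 ± 0.42), Arid5a (1.81 ± 0.29), which encodes an RNA-binding regulator of inflammatory transcripts, the elongation factor gene Ell (1.61 ± 0.28), Zfp593 (1.30 ± 0.22), Zfp346 (1.53 ± 0.28), Stfa1 (2.48 ± 0.44) and Tmem140 (1.61 ± 0.30). Below 0 were Tmem25 (-2.88 ± 0.46) and the kinesin gene Kif1b (-1.67 ± 0.29). Their adjusted p-values without that array were from 0.0246 to 0.0494 (limma), with 2 arrays left in the group, and with all 16 arrays from 0.422 to 0.474.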
